A study of Mus musculus with 4 samples.

Results

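The stretch of mouse chromosome 15 that holds the Drosha, 6030458C11Rik and Cdh6 genes was examined in tiled Capture-C maps, in which chromatin is crosslinked, cut with MboI and religated, and ligation products of chosen regions are enriched before sequencing, so that the reads joining a pair of sites count how often they were ligated. The interval was chosen by position alone, as all pairs of 6.4 kb bins with both bins inside chr15:12742401-13196800 (mm9, counted from 1). It covers 454.4 kb in 71 of the 456 captured bins of the chromosome, or 2556 of 104196 bin pairs, and it is the last stretch before the captured region ends. The maps come from 4 libraries, 1 per group, all made from mESCs (mouse embryonic stem cells) of the E14 line, so no difference between libraries has a replicate check.

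Line 1A2 carries TetO and LacO operator arrays without flanking 3xCTCF cassettes. Line 1F4 also lacks the cassettes but retains promoters of resistance genes beside the arrays. Line 1B1 carries 3xCTCF cassettes in convergent orientation at both arrays, and the library 1B1 -cohesin was made from 1B1 cells given 500 nM dTAG-13 for 2 h, a compound that leads the FKBP-tagged cohesin subunit RAD21 to degradation. Every line is a single clone of E14 cells grown in serum medium with LIF and inhibitors of MEK and GSK3, and all of them, controls included, carry heterozygous arrays upstream of the interval, fluorescent TetR and LacI repressors, tagged RAD21 and deletions of native CTCF sites around the arrays. The arrays, their cassettes and the deleted sites lie outside the interval, and where the repressor transgenes inserted is not given in the sources used here. Loss of RAD21 cannot be read from a contact map and was not measured in these files.

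Drosha encodes the nuclear ribonuclease that, with Dgcr8, cuts primary microRNA transcripts into hairpins, and it is used by nearly all cells. Cdh6 encodes a type II classical cadherin, a calcium-dependent adhesion protein with restricted expression in tissues such as developing kidney and neural crest. Cohesin is thought to extrude chromatin loops and CTCF to halt it, which folds chromosomes into domains with boundaries between them. Expression was not measured in these libraries, so the description of Drosha as ubiquitous and Cdh6 as tissue-restricted was not checked here.

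In the GENCODE annotation of mm9, Drosha (ENSMUSG00000022191.8) lies at chr15:12754570-12865045 on the plus strand and 6030458C11Rik (ENSMUSG00000022195.5) at chr15:12737932-12754412 on the minus strand, so that the pair starts back to back with 157 bases between them. Cdh6 (ENSMUSG00000039385.4) lies at chr15:12963955-13103394 on the minus strand, with its end facing the end of Drosha across 98.9 kb and its start 93.4 kb before the end of the captured region. The stretch between the starts of 6030458C11Rik and Drosha and the 200 bases before the start of Cdh6 are shown because the starts of these genes are the viewpoints below. Capitals mark CpG dinucleotides.
Drosha and 6030458C11Rik, chr15:12754413-12754569, plus strand: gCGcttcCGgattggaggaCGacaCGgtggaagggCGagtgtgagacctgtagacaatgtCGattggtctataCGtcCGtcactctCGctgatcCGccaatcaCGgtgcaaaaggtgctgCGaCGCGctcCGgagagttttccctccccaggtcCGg
Cdh6, chr15:13103395-13103594, minus strand: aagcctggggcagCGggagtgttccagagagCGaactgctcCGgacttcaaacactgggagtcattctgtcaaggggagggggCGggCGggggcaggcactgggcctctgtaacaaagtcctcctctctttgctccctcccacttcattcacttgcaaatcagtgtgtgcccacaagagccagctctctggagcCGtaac
The shared Drosha stretch holds 16 CpGs in 157 bases, 1.14 times the number its base composition gives, and the Cdh6 stretch holds 6 in 200 bases, 0.345 times that number. Over the same 200 bases before the start, Drosha has 24 CpGs and ranks 3 among the 23 protein-coding genes of the captured region, and Cdh6 ranks 13.

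The deposited signal is balanced, and the reads behind it were recovered as whole numbers from the bin factors. The libraries held 3214144 to 4089968 reads, of which 154884 to 206293 fell in the interval. This was 13.1% for 1A2, 13.2% for 1F4, 12.7% for 1B1 and 14.5% for 1B1 -cohesin of the reads of the captured chromosome 15 region, so the degraded library had the largest share. Reads were found in 96.0% to 98.4% of the interval's bin pairs, and balancing kept all of its bins. Errors given as ± are Poisson counting errors of recovered reads, without molecular identifiers, and leave out the variation between cultures, clones and library preparations.

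**Figure D1:**
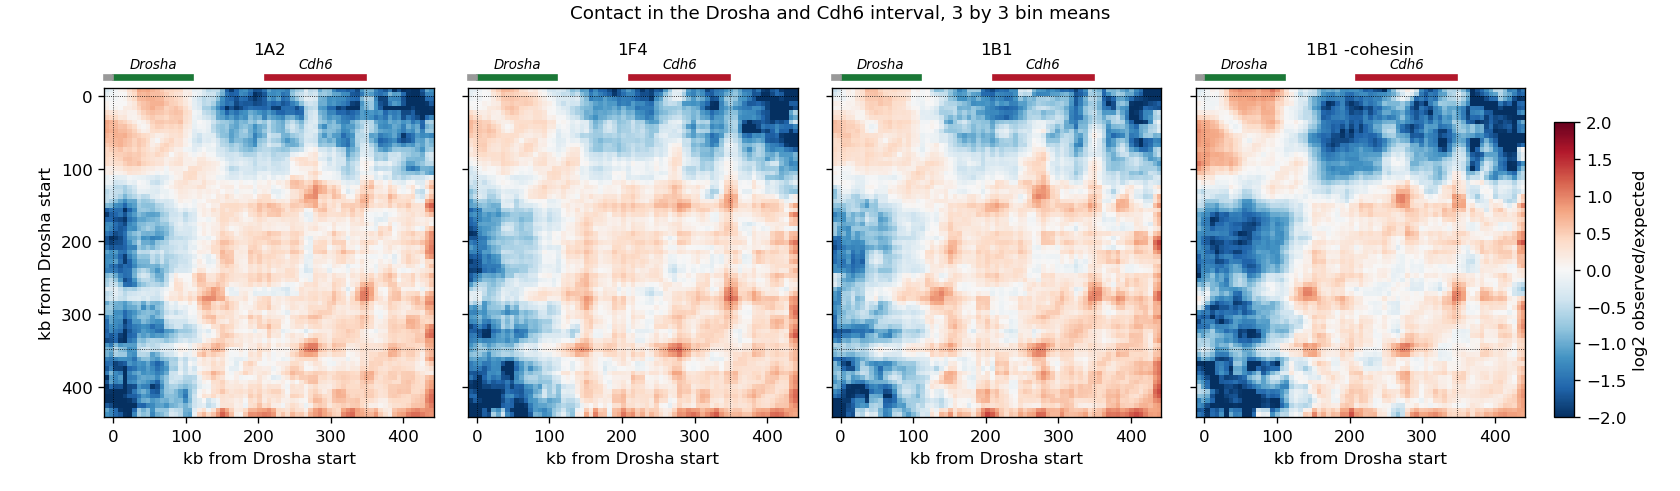
Log2 observed/expected contact in the interval in the 4 libraries, as means over 3 by 3 bins, with both axes in kb from the Drosha start, dotted lines at the Drosha and Cdh6 starts and genes drawn above (grey, 6030458C11Rik). Drosha forms a red square of its own, the corner joining Drosha to Cdh6 is mostly blue with a mean observed/expected of 0.516 to 0.721, and small red spots join the Cdh6 start to sites within and beyond Cdh6.

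Contact between the start of the widely used gene and that of the restricted gene was taken first. It was measured as observed/expected averaged over 3 by 3 bins, where the expected value is the mean balanced contact at the same separation in the captured region. The windows around the Drosha and Cdh6 start bins, 352 kb apart, were below the average of their separation in every library. In 1B1 -cohesin they were so only by about the counting error. Observed/expected was 0.497 ± 0.104 on 24 reads in 1A2, 0.531 ± 0.101 on 29 reads in 1F4, 0.621 ± 0.116 on 30 reads in untreated 1B1 and 0.836 ± 0.153 on 31 reads in 1B1 -cohesin. These values stood at the 25.6th, 30.7th, 32.9th and 36.2nd percentile of the 398 windows with this separation, none of them at an extreme. The log2 ratio of 1B1 -cohesin over 1B1 was 0.43 ± 0.38, and those of 1B1 over 1A2 and of 1F4 over 1A2 were 0.32 ± 0.40 and 0.10 ± 0.41, so no difference between libraries was detectable at this depth. The first ratio was 0.65 ± 0.38 with the expected value from the interval and 0.67 ± 0.37 with recovered reads. Without the expected value it was -0.26 ± 0.38, and -0.039 ± 0.378 when also scaled to the region, so its sign depends on the scale. The start bins alone, on 2 to 6 reads, gave an observed/expected of 1.07 ± 0.48 in 1A2, 1.09 ± 0.45 in 1F4, 0.808 ± 0.404 in untreated 1B1 and 0.578 ± 0.409 in 1B1 -cohesin, so that 1B1 -cohesin was the lowest instead of the highest and the log2 ratio of the last pair was -0.48. Windows of 5 by 5 bins, on 65 to 88 reads, gave 0.447 ± 0.057, 0.472 ± 0.052, 0.511 ± 0.058 and 0.553 ± 0.071, below expected in all 4 libraries.

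From the Drosha start, mean contact was above expected over the Drosha gene body and below expected over each later stretch of the interval, in every library. Over all pairs of the start bin and its neighbours with the gene body at 4 bins or more, mean observed/expected was 1.35 ± 0.04 in 1A2, 1.19 ± 0.03 in 1F4, 1.24 ± 0.03 in untreated 1B1 and 1.63 ± 0.04 in 1B1 -cohesin. The degraded library was the highest and lay outside the range of the untreated lines, with a log2 ratio over 1B1 of 0.39 ± 0.05 against -0.12 ± 0.06 for 1B1 over 1A2 and -0.19 ± 0.05 for 1F4 over 1A2. In the mean of the libraries this profile was highest at 38.4 to 57.6 kb and fell from there, so that its 3 highest windows at 60 kb or more, chr15:12812801-12832000, are the first past that limit and mark no site of raised contact. In the first of these bins, 64 kb from the start bin, observed/expected was 1.53 ± 0.09 in 1A2, 1.32 ± 0.07 in 1F4, 1.31 ± 0.08 in untreated 1B1 and 1.75 ± 0.09 in 1B1 -cohesin, on 310 to 440 reads. The mean hides a different shape in 1B1 -cohesin, whose profile was highest at 96 kb, with 1.87 ± 0.11 on 330 reads. At that window 1A2 had 1.21 ± 0.09, 1F4 1.02 ± 0.07 and untreated 1B1 1.15 ± 0.08.

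Around the end of Drosha the same profile dropped to below expected, before the end in 1F4 and past it in 1B1 -cohesin. Over the stretch between the genes it was 0.489 ± 0.038 in 1A2, 0.477 ± 0.033 in 1F4, 0.572 ± 0.039 in untreated 1B1 and 0.579 ± 0.044 in 1B1 -cohesin, and over the Cdh6 body it was 0.510 ± 0.039, 0.463 ± 0.034, 0.476 ± 0.036 and 0.527 ± 0.045. The log2 ratios of 1B1 -cohesin over 1B1, 0.019 ± 0.148 and 0.15 ± 0.16, were within 1 counting error of 0. With the expected value from the interval they were 0.23 ± 0.15 and 0.45 ± 0.17. Beyond the Cdh6 start the profile was lower still, at most 0.436, on 68 to 86 reads. In shares of the reads of the Drosha start bin beyond its neighbours, the Drosha body took 30.6% in 1A2, 28.3% in 1F4, 28.1% in untreated 1B1 and 38.8% in 1B1 -cohesin (exact 95% binomial interval 37.1% to 40.6%). The captured region upstream of the interval took 63.2%, 65.5%, 65.2% and 54.9%, so that the degraded library lost share there and gained it in the gene.

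**Figure D2:**
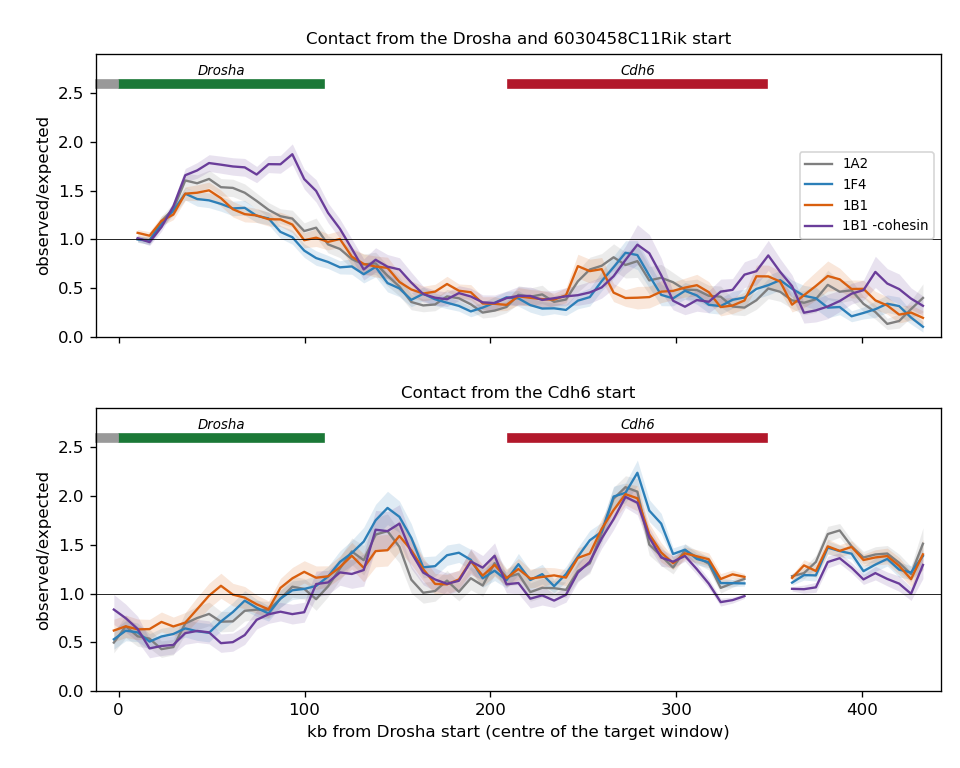
Observed/expected contact (linear axis) from the Drosha and 6030458C11Rik start bin, top, and from the Cdh6 start bin, bottom, to windows along the interval in kb from the Drosha start, with counting errors as bands and 1 line per library. The Drosha profile falls below 1 around the end of Drosha, inside the gene in 1F4 and past its end in 1B1 -cohesin. Over the gene body it is highest in 1B1 -cohesin from 32 kb past the start bin, but not nearer to it. The Cdh6 profile has peaks near 2 inside Cdh6 and above 1.4 between the genes in all 4 libraries.

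The Cdh6 start had a different profile, above expected on both sides. Mean observed/expected over the Cdh6 body was 1.38 ± 0.04 in 1A2, 1.47 ± 0.04 in 1F4, 1.44 ± 0.04 in untreated 1B1 and 1.31 ± 0.04 in 1B1 -cohesin. Over the stretch between the genes it was 1.26 ± 0.06, 1.44 ± 0.06, 1.29 ± 0.06 and 1.31 ± 0.07. The log2 ratios of the degraded library over 1B1 were -0.13 ± 0.05 over the gene body and 0.028 ± 0.10 between the genes. With the expected value from the interval they were -0.028 ± 0.056 and 0.23 ± 0.10, so neither is settled. Towards the Drosha body the profile fell below 1, with 0.751 ± 0.042 in 1A2, 0.779 ± 0.038 in 1F4, 0.896 ± 0.044 in untreated 1B1 and 0.702 ± 0.045 in 1B1 -cohesin, a log2 ratio of -0.35 ± 0.12 for the last pair. With the expected value taken from the interval alone this ratio was -0.067 ± 0.127, of the same sign and within its counting error of 0. The mean over Drosha hides a gradient along the gene. Near the Drosha start, at chr15:12768001-12774400, observed/expected was 0.538 in 1A2, 0.508 in 1F4, 0.636 in untreated 1B1 and 0.438 in 1B1 -cohesin. Near the Drosha end, at chr15:12851201-12857600, it was 1.05, 1.05, 1.22 and 0.809, so the untreated lines were not depleted there. The share of the Cdh6 start bin's reads that reached the Drosha body was 6.25% in 1A2, 5.94% in 1F4, 6.44% in untreated 1B1 and 3.65% in 1B1 -cohesin (exact 95% binomial interval 2.93% to 4.48%).

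Within this profile the Cdh6 start met a site in an intron of its own gene. The 3 highest windows at 60 kb or more were the adjoining bins chr15:13017601-13036800, 70.4 to 83.2 kb from the start bin, of which the first holds a Cdh6 exon and the other bins none. At the middle bin, chr15:13024001-13030400, observed/expected was 2.09 ± 0.12 on 372 reads in 1A2, 2.03 ± 0.10 on 464 in 1F4, 2.02 ± 0.11 on 393 in untreated 1B1 and 1.99 ± 0.11 on 404 in 1B1 -cohesin. The values of the 4 libraries differed by less than their counting errors. The window stood at the 98.4th to 99.5th percentile of the 441 windows with its separation, which is given as a description, since it was chosen for its high mean over these libraries.

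Focal contacts were windows with a high mean ratio to the surrounding ring of bins, and 3 of the 5 strongest of the interval joined the same 3 sites in pairs. These sites were the Cdh6 start bin, the Cdh6 intron bin chr15:13024001-13030400 and the intergenic bin chr15:12889601-12896000, beyond the end of Drosha. The start and intron bins had the highest ratio in the mean of the 4 libraries but not within each of them, with 1.83 in 1A2, 1.70 in 1F4, 1.72 in untreated 1B1 and 1.80 in 1B1 -cohesin. The intergenic bin and the Cdh6 start, 211.2 kb apart, had an observed/expected of 1.6 ± 0.17 in 1A2, 1.75 ± 0.16 in 1F4, 1.43 ± 0.16 in untreated 1B1 and 1.65 ± 0.20 in 1B1 -cohesin, on 73 to 119 reads. The intergenic and intron bins, 134.4 kb apart, had 1.84 ± 0.18, 1.46 ± 0.14, 1.98 ± 0.18 and 2.01 ± 0.19.
None of the 3 pairs differed between 1B1 and 1B1 -cohesin by more than its counting error relative to expected. The log2 ratios over 1B1 were -0.020 ± 0.111 for start and intron, 0.20 ± 0.24 for start and intergenic bin and 0.016 ± 0.185 for intron and intergenic bin. Without division by the expected value, the deposited values gave log2 ratios of -0.26, -0.44 and -0.44, and after scaling to the same sum over the region -0.034, -0.22 and -0.22. With recovered reads the ratios were 0.13 ± 0.10, 0.35 ± 0.23 and 0.25 ± 0.17, so their sign depends on the scale.

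The other focal windows were weaker in support. The bin after the Drosha start, chr15:12755201-12761600, met the same Cdh6 intron bin at 268.8 kb with a window to ring ratio of 1.86 in 1A2, 1.90 in 1F4, 1.17 in untreated 1B1 and 1.98 in 1B1 -cohesin, on 46 to 65 reads. Its observed/expected was below 1 in every library, at 0.859 ± 0.136, 0.894 ± 0.121, 0.621 ± 0.099 and 0.942 ± 0.15, so this window is a local rise in a depleted corner. The fifth joined chr15:12953601-12960000, just past the end of Cdh6, to chr15:13184001-13190400, with an observed/expected of 1.72 ± 0.29 to 2.17 ± 0.34. That window includes the last bin of the captured region. Of the 32 local maxima with enough reads, 5 had a mean ratio of 1.5 or more.

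Insulation was scored for each bin from the 10 by 10 pairs that join its left and right neighbours, as the log2 of their mean balanced contact divided by the average of all such squares in the captured region, and a boundary appears as a minimum. In the untreated lines the strongest minimum near the genes lay 1 bin before the interval, at chr15:12736001-12742400, which holds exons of 6030458C11Rik, with a score of -1.003 ± 0.043 in 1A2, -0.99 ± 0.04 in 1F4, -1.01 ± 0.04 in untreated 1B1 and -0.41 ± 0.03 in 1B1 -cohesin, where the bins between Drosha and Cdh6 described below were lower. The Drosha and 6030458C11Rik start bin is on the flank of this minimum and scored -0.57 ± 0.04, -0.63 ± 0.03, -0.62 ± 0.04 and -0.13 ± 0.03. The degraded library stood apart from the others at both bins, with log2 ratios over 1B1 of 0.60 ± 0.05 and 0.49 ± 0.05 where the untreated lines differed from each other by at most 0.058. These changes stood at the 96.6th and 92.9th percentile of the same change over 436 bins of the region, whose standard deviation was 0.28. Among the 19 bins with a protein-coding gene start, the Drosha start ranked 5, 4 and 4 from the lowest in 1A2, 1F4 and 1B1 and 14 in 1B1 -cohesin.

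The Cdh6 start was at most a shallow dip, below the bins on both sides in 1A2, 1F4 and 1B1 -cohesin but not in untreated 1B1. It scored 0.28 ± 0.03 in 1A2, 0.24 ± 0.03 in 1F4, 0.34 ± 0.03 in untreated 1B1 and 0.15 ± 0.03 in 1B1 -cohesin, above the mean of the region, and ranked 16 to 18 of the 19 start bins. The log2 ratio of -0.19 ± 0.04 in the degraded library became 0.072 with recovered reads in place of balanced values, so its direction is not settled.

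Inside the Drosha gene body, the deepest minimum in the mean of the 4 libraries was the bin of its 3' end, chr15:12864001-12870400, which begins 1.04 kb before the gene ends. The same bin was found with squares of 20 bins. The score there was -0.19 ± 0.03 in 1A2, -0.13 ± 0.03 in 1F4, -0.11 ± 0.03 in untreated 1B1 and -0.41 ± 0.03 in 1B1 -cohesin, on 3080 to 3916 reads. The untreated lines had a shallow dip, at the 31.2nd to 39.4th percentile of the bins of the region. In the degraded library the bin was at the 8.26th percentile but formed no dip of its own, since the next bins scored -0.40 and those after them lower still. Its log2 ratio over 1B1 was -0.30 ± 0.04, the 10.8th percentile of the same change over 436 bins, while 1B1 over 1A2 gave 0.085 ± 0.042 and 1F4 over 1A2 gave 0.060 ± 0.040. With squares of 20 bins these ratios were, in the same order, -0.29 ± 0.03, 0.12 ± 0.03 and 0.11 ± 0.03. With recovered reads in place of balanced values they were 0.020, 0.025 and 0.023. Beside this the interval held 14.5% of the region's reads in 1B1 -cohesin against 12.7% in 1B1, whose part in the difference was not tested.

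A second minimum followed in the stretch between the genes, at chr15:12883201-12889600, next to the intergenic bin that met the Cdh6 start. It scored -0.19 ± 0.03 in 1A2, -0.15 ± 0.03 in 1F4, -0.14 ± 0.03 in untreated 1B1 and -0.65 ± 0.03 in 1B1 -cohesin. The 3 untreated lines overlapped within their counting errors, and the degraded library was lower by a log2 ratio of -0.51 ± 0.05 against 1B1, at the 2.29th percentile of the region's bins. Of the 61 bins of the interval with a score, 44 (72.1%) were lower and 17 higher in 1B1 -cohesin than in 1B1, where 52.1% of the 436 bins of the region were lower. With recovered reads the count turned, to 12 lower and 49 higher in the interval beside 46.8% lower in the region, so no general direction of the interval is read from it. At the second minimum itself recovered reads gave -0.35 ± 0.04, of the same sign. The largest drop was -0.56 at chr15:12896001-12902400, in this same stretch, and the largest rise 0.54 at chr15:12742401-12748800, beside the Drosha start. A further minimum inside Cdh6, at chr15:13004801-13011200 in an intron, lay near 0 in all libraries, between -0.018 ± 0.030 and 0.065 ± 0.032, and its change of -0.051 ± 0.043 in 1B1 -cohesin was 0.19 with recovered reads.

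**Figure D3:**
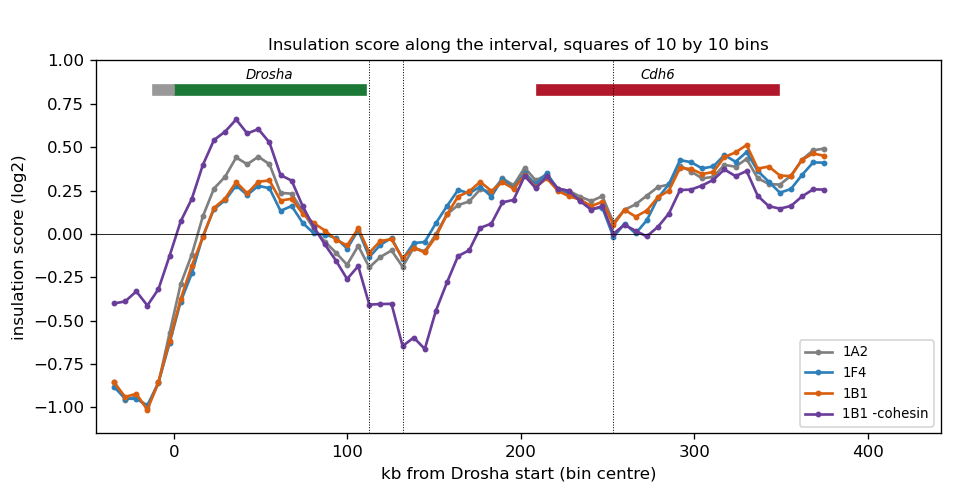
Insulation score (log2, balanced values, squares of 10 by 10 bins) of each bin against its distance in kb from the Drosha start, 1 line per library, with dotted lines at the Drosha 3' end and the other 2 minima of the interval. The 3 untreated lines differ by a median of 0.070 per bin and at most by 0.18, inside Drosha where 1A2 is the highest of them, and 1B1 -cohesin is higher before and at the Drosha start (-0.13 against -0.62 in 1B1) and lower from the Drosha end into the stretch between the genes (-0.65 against -0.14 at the second minimum).

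Sequence of the named bins was searched for the CTCF core consensus on both strands. No bin of the interval holds an exact match, as against 4 of the 456 bins of the region (0.877%). With at most 1 mismatch, 10 of the 71 interval bins (14.1%) and 62 of the 456 region bins (13.6%) hold a match. The bin of the Drosha 3' end, the second minimum and the intergenic bin hold none under either rule, which says only that these letters are not in these windows. Among the named bins, chr15:12812801-12819200, chr15:12819201-12825600 and chr15:13017601-13024000, the last next to the Cdh6 intron bin, each hold 1 match with 1 mismatch.

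Contact across the Drosha 3' end was then set against contact on either side, at the separations of 12.8 to 115.2 kb that all classes share. Pairs on the Drosha side had a mean observed/expected of 1.25 ± 0.02 in 1A2, 1.12 ± 0.02 in 1F4, 1.14 ± 0.02 in untreated 1B1 and 1.47 ± 0.03 in 1B1 -cohesin, and pairs on the Cdh6 side 1.25 ± 0.01, 1.25 ± 0.01, 1.26 ± 0.01 and 1.15 ± 0.01. Pairs across had 0.860 ± 0.016, 0.903 ± 0.014, 0.909 ± 0.016 and 0.737 ± 0.013. Contact across was lower than on both sides in every library, which the choice of the bin as the deepest minimum in the mean of these libraries favours and which is given as a description. It was lowest in 1B1 -cohesin. As the log2 ratio of across to the mean of both sides, this was -0.54 ± 0.03 in 1A2, -0.39 ± 0.03 in 1F4, -0.40 ± 0.03 in untreated 1B1 and -0.83 ± 0.03 in 1B1 -cohesin. The change of -0.43 ± 0.04 from 1B1 to 1B1 -cohesin was larger than the 0.14 ± 0.04 and 0.15 ± 0.04 by which 1B1 and 1F4 exceeded 1A2, and it was -0.39 with recovered reads. With 2 bins left out on each side it was -0.56 ± 0.08, beside 0.20 ± 0.08 for 1B1 over 1A2 and 0.30 ± 0.07 for 1F4 over 1A2.

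By means over gene bodies, Drosha and Cdh6 each had more contact within themselves than expected and less with each other, though not along all of Drosha. Contact within Drosha was 1.28 ± 0.02 in 1A2, 1.19 ± 0.01 in 1F4, 1.22 ± 0.01 in untreated 1B1 and 1.35 ± 0.01 in 1B1 -cohesin, and contact within Cdh6 was 1.22 ± 0.02, 1.19 ± 0.01, 1.20 ± 0.02 and 1.14 ± 0.01. Contact between the 2 genes was 0.664 ± 0.014, 0.682 ± 0.013, 0.721 ± 0.014 and 0.516 ± 0.013, on 2284 to 4170 reads. The change from 1B1 to 1B1 -cohesin was a log2 ratio of -0.48 ± 0.05 between the genes and 0.15 ± 0.02 within Drosha. With the expected value from the interval these were -0.22 and 0.28, and with recovered reads -0.25 and 0.34, so the signs were kept and the sizes were not. That within Cdh6, -0.079 ± 0.026, turned to 0.041 with the expected value from the interval and to 0.15 with recovered reads, so its direction depends on the scale.
The stretch between the genes had more contact than expected with Cdh6 and less with Drosha. Its contact with Cdh6 was 1.24 ± 0.02 in 1A2, 1.22 ± 0.02 in 1F4, 1.24 ± 0.02 in untreated 1B1 and 1.22 ± 0.02 in 1B1 -cohesin, a log2 ratio of -0.027 ± 0.033 for the last pair that became 0.13 ± 0.03 with the expected value from the interval, 0.18 ± 0.03 with recovered reads and -0.28 ± 0.03 without the expected value. Whether it changed is therefore not settled. Its contact with Drosha was 0.666 ± 0.012, 0.745 ± 0.012, 0.753 ± 0.013 and 0.561 ± 0.012, a log2 ratio of -0.42 ± 0.04. That ratio was -0.29 with the expected value from the interval and -0.18 with recovered reads.
Contact within the stretch itself was 1.12 ± 0.02 in 1A2, 1.13 ± 0.02 in 1F4, 1.11 ± 0.02 in untreated 1B1 and 0.895 ± 0.017 in 1B1 -cohesin, which was below expected in that library alone. The log2 ratio of -0.31 ± 0.04 was -0.12 with recovered reads and turned to 0.16 when contact was not divided by the expected value and was scaled to the region, so its direction depends on the scale.
Without the expected value, the deposited values, which have one total per library, gave a log2 ratio of -1.11 ± 0.04 for Drosha with Cdh6 and 0.17 ± 0.02 within Drosha. Scaled to the same sum over the region, as for the decay below, these were -0.89 ± 0.04 and 0.39 ± 0.02.

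**Figure D4:**
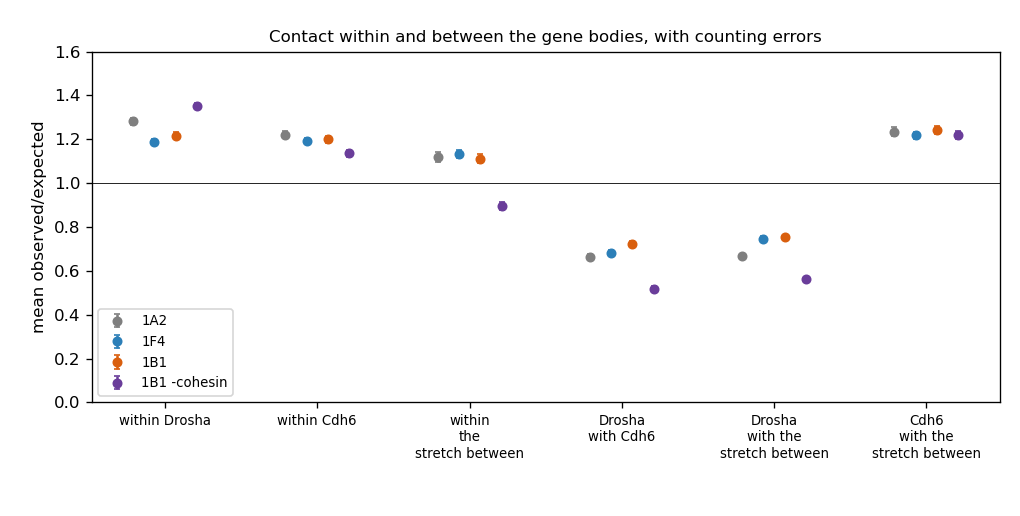
Mean observed/expected contact (linear axis) of bin pairs within and between Drosha, Cdh6 and the stretch between them, with 1 point per library and Poisson counting errors as bars. The untreated lines lie at 0.664 to 0.721 for Drosha with Cdh6 and 1B1 -cohesin at 0.516, whereas all 4 lie at 1.22 to 1.24 for Cdh6 with the stretch between on this scale.

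Contact within the interval decayed with distance more steeply than in the rest of the captured region. The slope of log10 mean balanced contact against log10 separation from 25 to 300 kb was -1.03 ± 0.01 in 1A2, -1.06 ± 0.01 in 1F4, -1.02 ± 0.01 in untreated 1B1 and -1.33 ± 0.02 in 1B1 -cohesin, and over the rest of the region it was -0.77, -0.79, -0.76 and -1.02. The slope of 1B1 -cohesin was steeper than that of 1B1 by -0.31 ± 0.02 in the interval and -0.26 ± 0.01 outside, while 1B1 differed from 1A2 by 0.014 ± 0.020 in the interval. These untreated lines were further apart in other settings. From 25 to 200 kb the interval slopes were -0.994 ± 0.013 in 1A2 and -0.941 ± 0.013 in untreated 1B1. With recovered reads they were -1.08 ± 0.01 and -1.05 ± 0.01. By bands of separation, with libraries scaled to the same sum over the region, the log2 ratio of 1B1 -cohesin over 1B1 in the interval was 0.16 ± 0.02 for 25 to 50 kb and -0.062 ± 0.021 for 50 to 100 kb. It was -0.44 ± 0.03 for pairs separated by 100 to 200 kb and -0.67 ± 0.04 for those separated by 200 to 400 kb. In the rest of the region it was 0.34 ± 0.01, 0.022 ± 0.009, -0.27 ± 0.01 and -0.48 ± 0.01, higher than in the interval in each band. The values as deposited gave -0.058 in the shortest band, and recovered reads 0.20 in the next, so that of the 4 bands those beyond 100 kb kept their direction under all scalings tried.

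Blocks of 3 by 3 bins that do not overlap showed where the maps differed by more than 1.5-fold in observed/expected. Of 231 blocks of the interval, 222 had a mean of 20 reads or more. Between 1B1 -cohesin and 1B1, 43 of them (19.4%) were lower, where 10.1% of the 2719 blocks of the region were, and 3 (1.35%) were higher, where 14.3% were. At the interval's own mix of separations the shares over the region were 8.98% lower and 12.7% higher. With recovered reads 8.11% of the interval's blocks were lower beside 9.97% of the region's, and with the expected value from the interval 11.7% were lower, so the excess of lower blocks depends on the scale. The share of higher blocks was below that of the region with recovered reads too, 4.05% against 15.0%. On the first scale, balanced values with the region's expected value, the 43 lower blocks lay mostly across the Drosha 3' end. They were 36 of the 87 blocks that join its sides, 3 of the 105 on the Cdh6 side and none of the 10 on the Drosha side (the rest touch the boundary bin). The median log2 ratio was -0.54 over the blocks across, -0.064 over those on the Cdh6 side and 0.32 over those on the Drosha side.
Both extremes joined Drosha to distant sequence and rested on few reads. The largest decrease was between chr15:12800001-12819200 and chr15:13164801-13184000, where observed/expected was 0.451 in 1A2, 0.266 in 1F4, 0.599 in untreated 1B1 and 0.192 in 1B1 -cohesin, on 22, 20, 33 and 7 reads. The largest increase, a log2 ratio of 1.07, was between the block of the Drosha start and chr15:13030401-13049600 in Cdh6, with 0.580 in 1A2, 0.630 in 1F4, 0.409 in untreated 1B1 and 0.858 in 1B1 -cohesin on 16 to 32 reads, so that 1B1 was the lowest of the untreated lines there.

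Among the untreated lines few blocks differed. Between 1B1 and 1A2, 7 of the 222 blocks (3.15%) were higher and 4 (1.80%) lower, where 3.31% and 1.91% of the region's blocks were. Between 1F4 and 1A2, 2 were higher and 4 lower, beside 2.02% and 2.61% in the region, and between 1B1 and 1F4, 6 were higher and 3 lower, beside 3.86% and 1.84%. These shares are near those of the region. By side, all 10 blocks on the Drosha side were lower in both 1B1 and 1F4 than in 1A2, with median log2 ratios of -0.12 and -0.17 beside 0.020 and -0.0034 over the region. These blocks share bins and both contrasts share the 1A2 library, so the blocks are not separate observations. The median over the 87 blocks across was 0.12 for 1B1 over 1A2, 0.11 for 1F4 over 1A2 and 0.11 for 1B1 over 1F4, the last beside 0.026 over the region. Contact within Drosha was likewise lower than in 1A2, by log2 ratios of -0.076 ± 0.024 in 1B1 and -0.11 ± 0.02 in 1F4. Without the expected value and scaled to the region these were -0.10 ± 0.02 and -0.0060 ± 0.0194, so the difference of 1F4 depends on the scale.

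**Figure D5:**
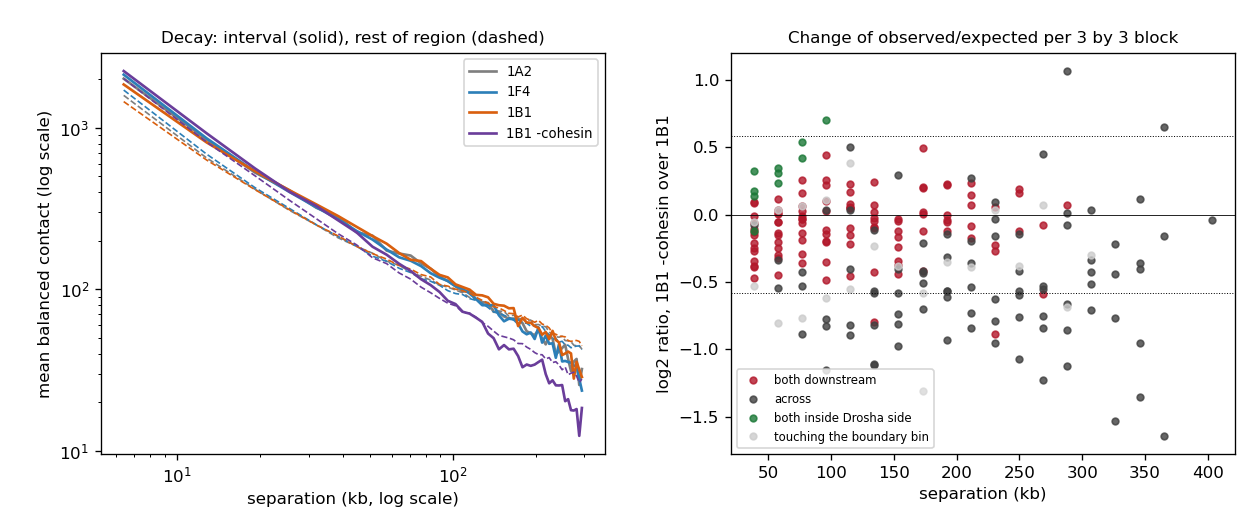
Left, mean balanced contact against separation (both log axes) in the interval (solid) and the rest of the region (dashed), 1 colour per library; right, log2 ratio of 1B1 -cohesin over 1B1 of each 3 by 3 block against its separation in kb, with dotted lines at 1.5-fold. The 1B1 -cohesin line falls fastest with distance, and 36 of the 43 blocks past the lower line are across the Drosha 3' end. The ratios are of balanced observed/expected values, and with recovered reads 18 of the 222 blocks were past that line.

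The overall pattern of the interval was similar between all libraries. Over the 222 blocks, Pearson's r of log2 observed/expected was 0.895 to 0.922 between the untreated lines. It was 0.875, 0.859 and 0.849 for 1B1 -cohesin with 1A2, 1F4 and 1B1. Over all 2719 blocks of the region, r between untreated lines was 0.922 to 0.933, and with 1B1 -cohesin 0.688, 0.679 and 0.692. The values with 1B1 -cohesin were thus higher in the interval than over the region, whose blocks were not matched to the interval's separations. Over single bin pairs the gap was small, with 0.648, 0.616 and 0.601 in the interval against 0.583, 0.577 and 0.585 over the region. This is a description across blocks that share libraries, depth and neighbours and are not replicates. Spearman's rho over the interval was 0.868 for 1B1 and 1B1 -cohesin and 0.914 to 0.923 between untreated lines.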

How the data were processed

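Tiled Capture-C maps of 4 libraries, 1 per group, were analysed. The authors processed reads with HiC-Pro 2.11.4 on mm9, kept valid pairs within the captured regions, counted them in 6.4 kb bins and balanced them with ICE, so the deposited signal is a balanced contact value per bin pair and every library has the same sum. A balanced value is a read number times a factor of each bin. The factors were solved by least squares, and 100% of values in each library came within 0.05 of a whole read (largest deviation 0.00862). Balanced values were divided by the mean at their separation over the captured chromosome 15 region. Windows, insulation squares, classes of pairs, decay and blocks were computed with Python 3 (numpy, scipy). Read recovery, blocks and the decay slope outside the interval were also run on simulated maps. Windows, insulation squares and classes of pairs were not. Gene models were GENCODE on mm9, used in place of RefSeq gene starts.

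Without replicates no test was made. Counting errors, the differences between the untreated lines or the spread over the region stand beside the main values, though not all of them beside each. Named bins were the gene starts, the deepest minimum in Drosha, other insulation minima at least 0.3 below the highest score within 15 bins on both sides, the 5 focal windows and the 3 highest windows of each profile (60 kb or more, 50 reads or more). The minimum before the interval, the blocks quoted as extremes and the bins of largest insulation change were chosen after their values were seen. Members and measures were chosen with earlier results of these data known. Reads to chromosomes 1 and X were used only in the closing section.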

Additional observations from a re-analysis of the deposited data

Results flagged for a closer look

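Reads joining the interval to the captured regions on chromosomes 1 and X were not used in the comparisons. Their share of all reads with an end in the interval was 0.109% (226 reads) in 1A2, 0.0913% (237 reads) in 1F4, 0.136% (285 reads) in 1B1 and 0.141% (366 reads) in 1B1 -cohesin. The share in the degraded library was above that of each untreated library, but its exact 95% binomial interval of 0.127% to 0.156% overlapped that of 1B1, 0.121% to 0.153%. The intervals cover counting error only.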

How the results depend on the processing

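No paired analysis was possible because each group has 1 library and no second replicate number, which also leaves no replicate to omit. Of 498 recomputed values, 400 stayed within the 95% counting interval of the value reported (or 1.5 times, for shares of blocks). Among the 448 log2 ratios and slope differences 83 changed sign, 9 from a value that was past its counting interval and 74 from a value that was not. Values below are log2 ratios of 1B1 -cohesin over 1B1 unless named, and the cause of a move was not tested. The settings without division by the expected value, and all those of the focal windows and of the minima other than the Drosha 3' end, were chosen after seeing the data.

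With recovered reads, the change at the Drosha 3' end turned to 0.020 and was -0.35 and 0.19 at the minima between the genes and in Cdh6, and it turned at the Cdh6 start to 0.072, within Cdh6 to 0.15 and in the 50 to 100 kb band to 0.20, and other values became 0.34 within Drosha, -0.12 within the stretch between, -0.25 for Drosha with Cdh6, -0.18 and 0.18 for Drosha and Cdh6 with the stretch between, and 0.43, -0.24 and -0.49 in the 25 to 50, 100 to 200 and 200 to 400 kb bands. With the expected value from the interval, contact within Cdh6 turned to 0.041, and the others became 0.28 within Drosha, -0.17 within the stretch between, -0.22 for Drosha with Cdh6, -0.29 and 0.13 for Drosha and Cdh6 with the stretch between, 0.49 for the Drosha profile over Drosha, and -0.067, 0.23 and -0.028 for the Cdh6 profile over Drosha, the stretch between and Cdh6. Without the expected value, the contacts became -0.26, -0.084, -0.44 and -0.44 for the first to the fourth focal window, -0.059 within the stretch between, -1.11 for Drosha with Cdh6 and -0.28 for Cdh6 with the stretch between. Scaled to the region as well, contact turned to 0.18 within Cdh6 and 0.16 within the stretch between, and was 0.39 within Drosha, -0.89 for Drosha with Cdh6 and -0.26 for Drosha with the stretch between. The start bins alone gave -0.48 for the promoter pair, 0.82 for the Drosha profile beyond the Cdh6 start and 0.31 for the Cdh6 profile between the genes. Insulation on observed/expected values gave -0.45 at the Drosha 3' end and -0.63 at the second minimum, squares of 7 bins gave 0.36 at the Drosha start, and leaving out 2 bins on each side gave -0.56 across the boundary. Pairs 4 bins or more apart gave 0.22 within Drosha. The Drosha profile beyond the Cdh6 start has no value with the expected value from the interval.

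As deposited, the bands from short to long were -0.058 (turned), -0.29, -0.66 and -0.89, and for 1B1 over 1A2 0.042, 0.026 and 0.12 in the bands up to 200 kb; 1B1 over 1F4 turned to 0.058 in the 25 to 50 kb band. The slope difference outside the interval was -0.25 from 50 to 300 kb and -0.28 from 25 to 200 kb, and in the interval it was -0.33 to -0.34 under its 3 alternatives. The share of interval blocks higher became 0.562% at a mean of 50 reads, 2.70% with the interval's expected value and 4.05% with recovered reads, and the share lower 11.7% and 8.11% with the last settings. For 1B1 over 1A2 the share higher was 1.12% and lower 0.562% at 50 reads, and lower 0.901% with recovered reads. Map similarity of single bin pairs was 0.660 for 1A2 and 1B1 and 0.601 for 1B1 and 1B1 -cohesin, and that of 1A2 and 1B1 was 0.932 with recovered reads. At the promoter pair, 24 to 31 reads left log2 ratios with errors of 0.38 to 0.41.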
